A study of Mus musculus with 12 samples.

Results

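Antigen given with costimulation (Ag+Costim, 5 libraries) was compared with antigen alone (Ag, 5 libraries) in CD8+ T cells, over every annotated gene of the deposited count table. The comparison takes in 10 of the 12 libraries of the series, 55536 annotated genes of 81881 entries, and 18817 genes that carried enough counts to be tested. All cells were OT-I cells, CD8+ T cells with a transgenic receptor for the ovalbumin peptide SIINFEKL, labelled as OT-1 Tg C57BL/6J, which by the methods came from Rag1-/- or Rag2-/- mice and were moved into C57BL/6J recipients. Ag recipients got the peptide with control rat IgG, and Ag+Costim recipients got the peptide with the agonist antibodies OX-86 against CD134 (OX40, gene Tnfrsf4) and 3H3 against CD137 (4-1BB, gene Tnfrsf9). The cells were sorted from spleen and lymph nodes on day 4 by the labels, which give no age or sex per library. The third group, Naive (2 libraries), holds OT-I cells that were never transferred, and its levels are given here only beside those of the other groups. The study describes the libraries of a group as biological replicates from separate mice, which the labels do not state. Y-linked genes held 0.0143% to 0.0204% of counts in replicates 1 and 2 of both Ag and Ag+Costim and at most 0.000388% in replicates 3 to 5, where Xist, the RNA of the silenced X chromosome, was higher (0.00773% to 0.0483%, against at most 0.00149%).

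A T cell that meets its antigen receives a first signal through the T cell receptor, and what it becomes depends on further signals. CD134 and CD137 are receptors of the TNF receptor superfamily that appear on activated T cells and signal through TRAF adaptor proteins to NF-kB. Their engagement is known to prolong division and survival of CD8+ T cells, whereas antigen without such signals, above all as free peptide, is known to leave T cells short-lived or unresponsive (anergic).

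The 10 libraries held 24006053 to 49294934 counts, and 9 of them held at least 40028682. The Ag 4 library was the shallowest and stood apart from the other Ag libraries on the second principal component of log2 CPM, which carried 11.99% of the variance, while the first carried 48.1% and separated the 2 groups. The Ag+Costim 4 library lay nearest to the Ag libraries on the first component, and it was the lowest Ag+Costim library for 64.4% of the 1560 genes that were over 2-fold higher at a mean log2 CPM above 3. The sequencing core's sheet lists an input amount of 0 for each of the 5 Ag libraries and of 10 for each of the 5 Ag+Costim libraries, without a unit, so this entry and the group cannot be told apart.

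Levels are given for single libraries in CPM (counts relative to library size, scaled by TMM) in the order of their replicate numbers. The value after ± is the SD for CPM (n = 5 and 5). For log2 fold changes of Ag+Costim over Ag it is an approximate standard error. It was taken as the size of the change over the square root of the test's F, with the spread estimated over all 12 libraries. Every adjusted p comes from edgeR's two-sided quasi-likelihood test with Benjamini-Hochberg adjustment over all 18817 genes. A gene is said to have risen or fallen where that p was below 0.05. With Ag+Costim, 5006 genes rose, or 26.6% of those tested, and 4979 fell, or 26.5%. The rises and falls counted in each gene list below are to be read beside these shares of all genes. Changes over 2-fold were found for 2609 higher genes (13.9%) and 2386 lower genes (12.7%). Without overlap between libraries, 4017 genes (21.3%) lay above and 3474 (18.5%) lay below. Over all genes tested, the log2 fold change had a median of -0.05. Upper-quartile scaling moved that median to -0.24 and the split to 4056 higher and 6338 lower genes. In bulk RNA of a sorted population, a change in the cells that carry a transcript and a change in its amount per cell cannot be told apart.

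**Figure D1:**
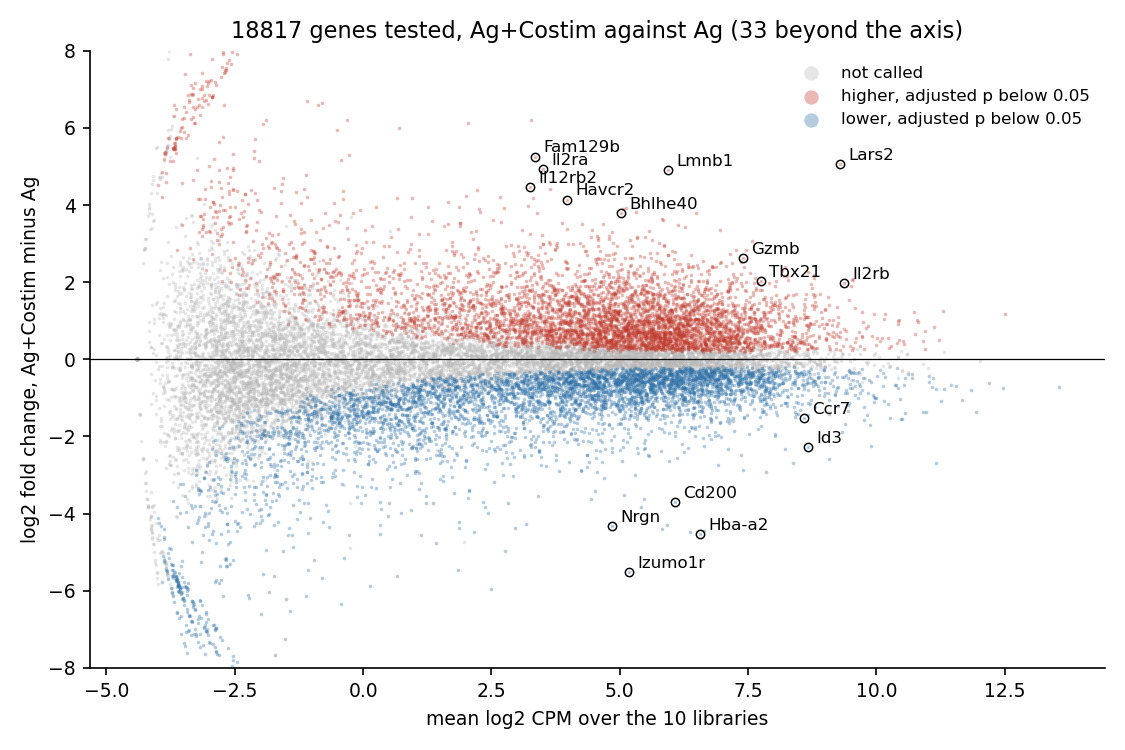
Log2 fold change of Ag+Costim over Ag against the mean log2 CPM of the 10 libraries for the 18817 genes tested, 1 point a gene, with called genes in red (5006 higher) and blue (4979 lower) and the rest in grey. Circles with names mark genes described in the text.

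The largest rises among well-expressed protein-coding genes were found for a cytokine receptor chain, a lamin, an inhibitory receptor and several genes of growth and division. Fam129b, a protein of the Niban family (ENSMUSG00000026796.16, chromosome 2, 32876114 to 32925254, mm10), stood at 1.67, 2.15, 1.44, 2.49 and 0.794 CPM in the Ag libraries and 62.6, 78.8, 75.04, 37.8 and 68.0 CPM in the Ag+Costim libraries. No library overlapped, and the level was 38.2-fold higher (log2 fold change 5.25 ± 0.29, adjusted p = 2.03e-08). Npm3, a nucleolar relative of nucleophosmin, went from 2.19, 0.85, 2.73, 4.23 and 2.41 to 40.6, 36.4, 58.9, 35.5 and 49.3 CPM, 18.1-fold higher (4.18 ± 0.32). Iqgap3, a scaffold protein of dividing cells, went from 2.63, 2.57, 1.65, 5.14 and 0.77 to 32.2, 46.1, 44.0, 32.3 and 40.8 CPM, 15.6-fold higher (3.96 ± 0.46). Every Ag+Costim library lay above every Ag library for both. Cercam (log2 fold change 3.79 ± 0.25) and Prpf19, a ubiquitin ligase of the spliceosome (3.65 ± 0.11), were the other non-overlapping genes among the first 15 that belong to no list described further on.

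Lars2, the mitochondrial leucyl-tRNA synthetase, ranked second among the rises, with 70.2, 76.0, 94.8, 265 and 75.8 CPM in Ag and 4251, 3228, 3432, 4362 and 4153 CPM in Ag+Costim. The libraries did not overlap, and the Naive libraries were higher still at 9264 and 9256 CPM. The exons of Lars2 are known to hold a stretch that resembles ribosomal RNA, and it is 1 of 6 tested genes of a list of ribosomal RNA-like genes. Of the other 5, 4 rose, among them Gm24270 (log2 fold change 6.205), Gm23935 (3.80) and Gm26917 (0.91), and 1 was not called. The summed share of the list, Lars2 included, was 0.0396% to 0.155% of annotated counts in Ag, 0.433% to 0.616% in Ag+Costim, and 1.36% and 1.63% in Naive. The part of ribosomal RNA reads in the Lars2 counts was not tested.

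The largest falls were led by Izumo1r, which encodes folate receptor 4, a surface marker of anergic T cells (ENSMUSG00000031933.17, chromosome 9, 14885814 to 14903949, mm10). It stood at 282, 310.1, 270.4, 194 and 236 CPM in the Ag libraries and 9.06, 3.83, 4.97, 7.38 and 2.83 CPM in the Ag+Costim libraries, against 10.1 and 6.76 CPM in Naive. The groups were far apart, with Ag+Costim 46.0-fold lower (-5.52 ± 0.31, adjusted p = 2.03e-08). Ephx1, microsomal epoxide hydrolase, went from 293, 323, 296, 179 and 304 to 11.1, 6.5, 8.87, 25.4 and 13.9 CPM (-4.41 ± 0.33). Ramp1, an accessory protein of the calcitonin receptor family, went from 61.8, 63.2, 39.2, 24.96 and 34.6 to 5.36, 1.95, 1.11, 2.07 and 1.01 CPM (-4.28 ± 0.44), while the Naive libraries stood at 87.8 and 78.9 CPM. Neither gene's libraries overlapped between Ag and Ag+Costim. Gm14085, a predicted gene, fell from 156, 166, 144, 139 and 210.2 to 11.1, 7.56, 10.6, 18.4 and 10.1 CPM (-3.82 ± 0.21). H2-Ob, a non-classical MHC class II chain also carried by B cells (-3.62), Snx20, a sorting nexin (-3.61), Timp2, a metalloproteinase inhibitor (-3.52), and Pacsin1, an endocytic adaptor (-3.07), fell without overlap as well, on the log2 scale.

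The 4 adult hemoglobin genes ranked among the 7 largest falls. Hba-a2 stood at 276, 783, 179, 1799 and 361 CPM in Ag and 56.4, 11.9, 60.6, 15.1 and 3.79 CPM in Ag+Costim, a fall of 23.0-fold (-4.52 ± 1.10, adjusted p = 0.00564). Ag 4 was by far the highest library, here and for the other 3 genes. Hbb-bs went from 251.92, 627, 152, 1591 and 292 to 45.7, 11.5, 55.5, 15.2 and 2.99 CPM (-4.48 on the log2 scale). Hba-a1 went from 285, 795, 185, 1842 and 378 to 60.3, 12.5, 66.0, 16.7 and 4.21 CPM (-4.45), and Hbb-bt from 167, 413, 107, 1093 and 199 to 42.5, 7.47, 36.7, 9.63 and 3.35 CPM (-4.31). The near-identical pairs share reads, so their separate counts are uncertain. They moved with the whole erythroid marker list, of which 6 of 7 tested members fell: its summed share was 0.0589% to 0.673% of counts in Ag and 0.0014% to 0.0212% in Ag+Costim (exact permutation test, two-sided, p = 0.00794, the smallest that 5 against 5 libraries allow, 0.0185 after adjustment over 14 marker lists). Without any 1 of the Ag+Costim libraries the share stayed lower, but its adjusted p lay between 0.0556 and 0.0741. The part of erythroid RNA in other results was not tested.

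**Figure D2:**
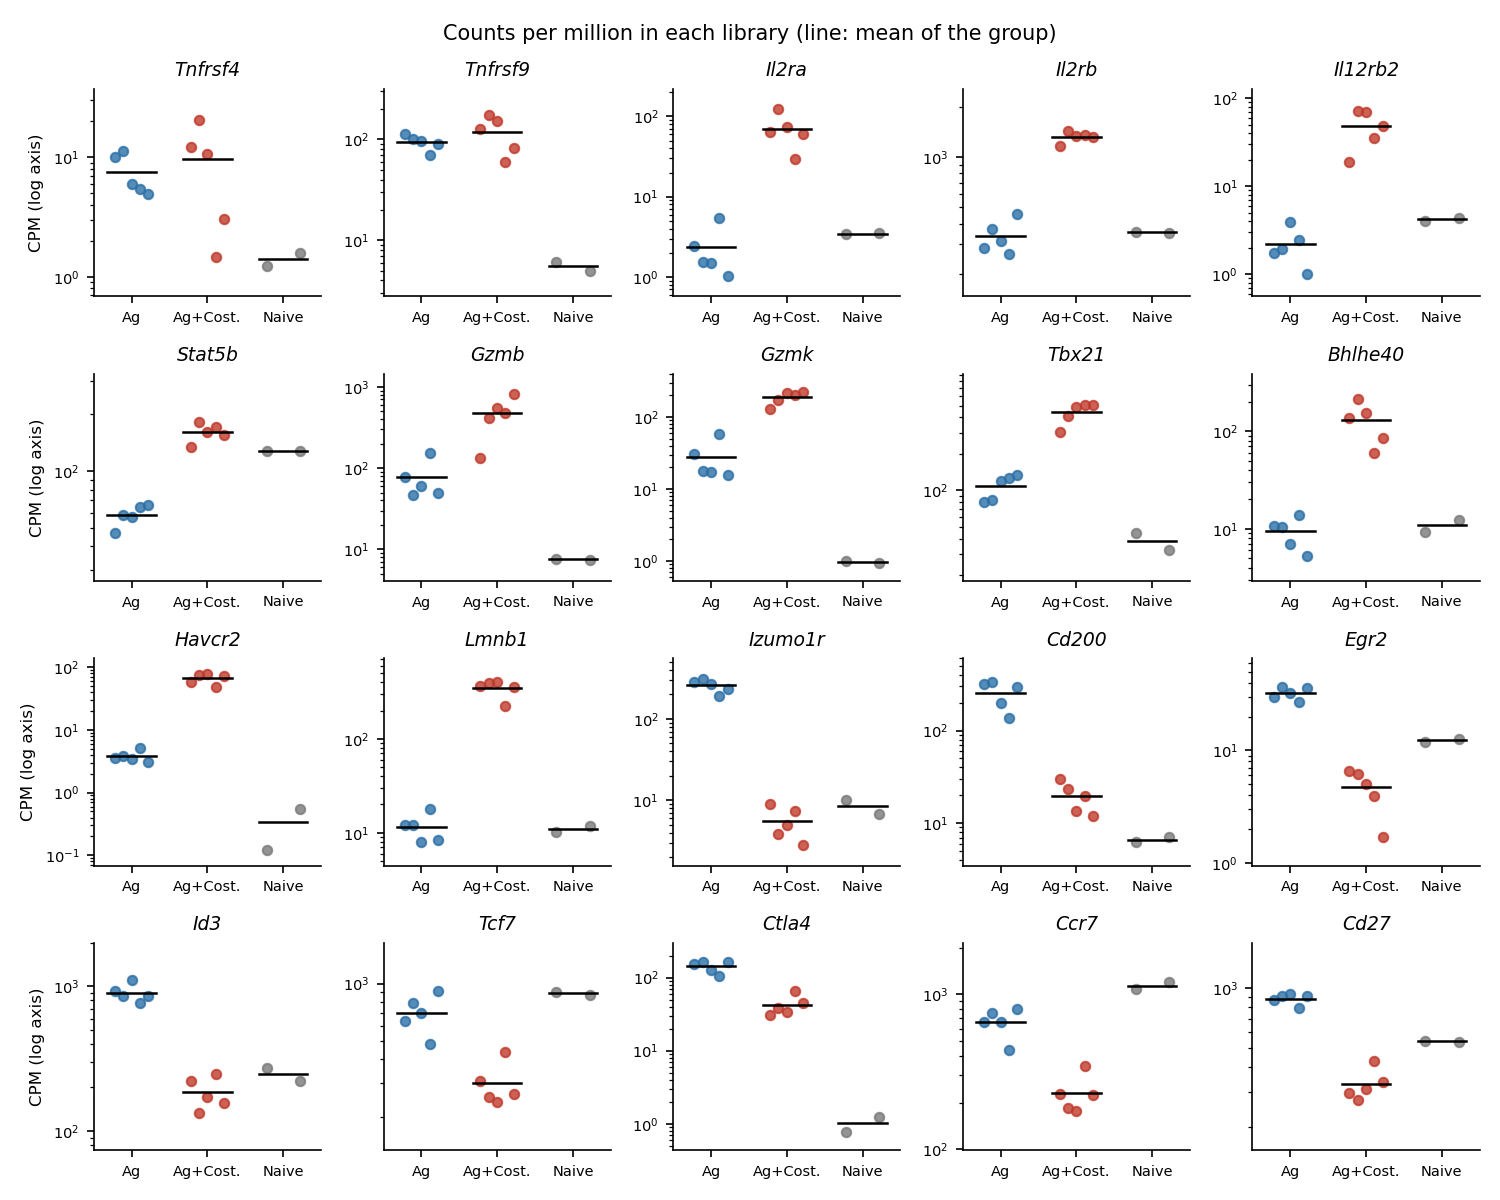
CPM of 20 genes in each Ag (blue), Ag+Costim (red) and Naive (grey) library on log axes, with a line at each group's mean. Tnfrsf4 and Tnfrsf9 overlapped between Ag and Ag+Costim, and so did Gzmb, while the other 17 genes did not.

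The receptors bound by the antibodies were measured first among the costimulatory genes. Tnfrsf4 (CD134) stood at 10.1, 11.3, 5.94, 5.42 and 4.88 CPM in Ag and 12.1, 20.7, 10.7, 1.47 and 3.04 CPM in Ag+Costim, and Tnfrsf9 (CD137) at 114, 102, 96.2, 70.2 and 90.8 CPM and 126, 176, 153, 59.9 and 83.2 CPM. The groups overlapped for both, with log2 fold changes of 0.35 ± 0.54 (adjusted p = 0.616) and 0.34 ± 0.24 (adjusted p = 0.259), and in Naive the levels were 1.23 and 1.57 CPM and 6.05 and 5.0 CPM. The direction for Tnfrsf4 rested on the Ag+Costim 2 library, without which its log2 fold change was -0.14, and without Ag+Costim 4 Tnfrsf9 passed the test at 0.53 (adjusted p = 0.0342).

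Costimulatory receptors and ligands of T cells were lower more often than higher. Of 15 tested, these 2 receptors included, 8 fell and 3 rose, with a median log2 fold change of -0.88 against -0.05 over all genes. Cd27, a receptor of resting and memory T cells, fell from 872, 908, 939, 790.2 and 908 to 298, 274, 311, 429 and 338 CPM (-1.42 ± 0.11, adjusted p = 2.82e-07). Tnfsf8, the ligand of CD30, fell from 73.0, 71.7, 71.9, 54.5 and 69.1 to 16.2, 11.4, 10.7, 18.0 and 7.76 CPM (-2.41 ± 0.20). Tnfrsf1b, which encodes TNF receptor 2, rose from 74.6, 104, 60.5, 67.3 and 87.2 to 193, 237, 224, 206 and 202 CPM (1.43 ± 0.13). None of the 3 overlapped between groups. Tnfrsf18, which encodes GITR (-1.36), Cd40lg, the ligand of CD40 (-2.01), and Icos (-0.95) fell on the log2 scale, and Cd28 fell by little (-0.28), a call that was lost when single libraries were left out. Cd70, the ligand of CD27, had no count in any Ag or Naive library and stood at 1.94, 2.62, 0.943, 0.0698 and 0.156 CPM in Ag+Costim, at least 14.6-fold higher than a floor of 3 counts per Ag library, although Ag+Costim 4 itself lay near that floor.

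Among the TRAF adaptors and members of the NF-kB pathway, through which these receptors signal, 6 of 20 rose and 8 fell (median -0.08). Of all genes 26.6% rose and 26.5% fell. After a correction for transcript length 5 of the 20 rose and 11 fell. Nfkb2, the precursor of p52 in the non-canonical branch, rose from 48.8, 59.0, 53.8, 58.3 and 48.1 to 131, 207, 157, 82.9 and 58.2 CPM (1.25 ± 0.27, adjusted p = 0.00132), with overlap through Ag+Costim 5. Nfkbia, which encodes the inhibitor IkB-alpha, fell from 356, 356, 373, 284 and 351 to 181, 187, 159.6, 139.8 and 87.9 CPM (-1.19 ± 0.17), and Traf5, an adaptor of CD134 and other receptors, fell from 124, 143, 119, 91.2 and 149 to 59.4, 54.8, 61.5, 68.2 and 59.1 CPM (-1.05 ± 0.12), both without overlap. Map3k14, the kinase NIK of the non-canonical branch, rose (0.85), as did Traf6 (0.92) and Tnfaip3, the feedback regulator A20 (0.82). Traf1 (-0.97), Nfkbie (-0.59) and Rela (-0.29) fell.

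The receptor for interleukin-2 rose in its alpha and beta chains and fell in its shared gamma chain. Il2ra (CD25), the chain that gives the receptor high affinity (ENSMUSG00000026770.5, chromosome 2, 11642807 to 11693193, mm10), stood at 2.41, 1.52, 1.49, 5.42 and 1.03 CPM in Ag and 64.2, 122, 73.5, 29.3 and 60.5 CPM in Ag+Costim. That was 30.5-fold higher (4.93 ± 0.47, adjusted p = 1.67e-06), with every Ag+Costim library above every Ag library. Il2rb (CD122), the signalling chain shared with the interleukin-15 receptor, went from 285, 373, 314, 263 and 455 to 1172, 1430.0, 1339.8, 1353 and 1330.3 CPM, 3.92-fold higher (1.97 ± 0.14). Il2rg, the common gamma chain, fell without overlap, from 1881 ± 253 to 1176 ± 144 CPM (-0.68 ± 0.11). Of the 8 receptor genes of this family 3 rose and 2 fell (median 0.35), which became 3 and 3 under upper-quartile scaling (median 0.15) and 2 and 3 under the length correction (median 0.18). Il4ra, a chain of the interleukin-4 receptor, rose from 31.6, 35.2, 51.8, 39.5 and 37.6 to 53.9, 64.6, 60.9, 91.4 and 50.2 CPM with overlap (0.71 ± 0.16), a call lost under the length correction (adjusted p = 0.0876), and Il7r, the survival receptor of resting cells, fell (-0.54) from a level already well under the 525 and 609.7 CPM of Naive.

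Receptors for inflammatory cytokines held some of the largest rises. Il12rb2, the signalling chain of the interleukin-12 receptor, stood at 1.73, 1.92, 3.94, 2.45 and 1.01 CPM in Ag and 19.0, 70.9, 70.2, 35.7 and 48.6 CPM in Ag+Costim, 22.1-fold higher (4.47 ± 0.41, adjusted p = 1.02e-06). Il12rb1, its partner, went from 14.5, 17.6, 11.8, 13.7 and 11.98 to 31.2, 50.2, 58.8, 40.8 and 49.8 CPM (1.73 ± 0.19), and Il18rap, a chain of the interleukin-18 receptor, from 40.5, 40.6, 34.3, 54.3 and 61.3 to 99.2, 112, 121, 148 and 129 CPM (1.40 ± 0.17). No library overlapped between the groups for these 3 genes. Il1rl1 (ST2), the interleukin-33 receptor, rose by 4.38 on the log2 scale to 21.8 ± 8.29 CPM. Of the 16 receptors outside the gamma chain family 7 rose and 5 fell, with a median of 0.10 that turned to -0.10 under upper-quartile scaling and -0.14 under the length correction. Il10ra (1.16) and Tgfbr2 (1.08) were among the rises, and Ifnar2 (-0.77) and Il10rb (-0.75) among the falls.

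Of 15 JAK, STAT and SOCS genes, which carry and limit signals of these receptors, 9 rose and 2 fell (median 0.74). Stat5b went from 47.3, 58.5, 57.5, 64.6 and 66.2 to 133, 182, 160.3, 172 and 156 CPM (1.45 ± 0.11, adjusted p = 1.58e-07), and Stat5a from 28.8, 42.0, 30.3, 31.5 and 38.8 to 79.2, 93.3, 95.0, 85.8 and 80.5 CPM (1.34 ± 0.11). Both encode the factors that interleukin-2 activates, and neither overlapped between groups. Tyk2 rose from 57.4, 62.4, 56.3, 74.5 and 70.9 to 122, 148, 129, 144 and 119.8 CPM (1.04 ± 0.10). Jak3, the kinase bound to the gamma chain (0.80), Stat3 (0.83) and Cish, a target and inhibitor of STAT5 signals (1.08), rose too. Jak1 rose (0.70) until transcript length was corrected for (adjusted p = 0.0534), and Socs1, an inhibitor of cytokine receptors, fell (-0.85).

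Transcription factors of effector and memory differentiation moved both ways: of 29 tested, 11 rose and 12 fell, with a median of 0.12 that turned to -0.08 under upper-quartile scaling and -0.07 under the length correction. Bhlhe40, a repressor needed for cytokine output of T cells, stood at 10.7, 10.4, 6.92, 13.9 and 5.27 CPM in Ag and 136, 217, 155, 59.8 and 85.2 CPM in Ag+Costim, 13.9-fold higher (3.80 ± 0.36, adjusted p = 1.27e-06). Ikzf2, which encodes Helios, went the other way, from 45.8, 31.7, 39.9, 52.0 and 38.9 to 4.1, 5.87, 7.76, 8.61 and 6.34 CPM (-2.67 ± 0.19). Id3, an inhibitor of E proteins kept high in memory precursors, went from 934, 857, 1114, 771 and 866 to 223, 132, 173, 246 and 157 CPM (-2.29 ± 0.17). The libraries of the 3 genes separated the groups. Prdm1, which encodes Blimp-1, a driver of terminal effector cells, was low in Ag at 0.93 ± 0.261 CPM and rose to 17.4 ± 3.89 CPM (4.24 ± 0.27). Tbx21, which encodes T-bet, rose 4.06-fold (2.02 on the log2 scale), Irf4 by 1.79, Eomes by 1.69, Runx3 by 1.42 and Id2, the counterpart of Id3, by 1.41.

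Factors known from resting and memory T cells were among the falls. Tcf7, which encodes TCF-1, stood at 705 ± 161 CPM in Ag, 300.3 ± 79.7 CPM in Ag+Costim and 908 and 869 CPM in Naive (-1.23 ± 0.18, adjusted p = 7.54e-05). Lef1 (-1.16), Bach2 (-1.42) and Foxo1 (-2.05) fell on the log2 scale. Every Ag+Costim library lay below every Ag library for these 4 genes. Batf, which encodes an AP-1 family factor of activated T cells, was not called, at 159 ± 17.3 CPM in Ag and 176 ± 27.9 CPM in Ag+Costim (0.15 ± 0.11, adjusted p = 0.292). It stood at -0.05 under upper-quartile scaling and passed the test at 0.35 under the length correction (adjusted p = 0.0125).

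Genes of the cytotoxic granule moved in both directions, with 7 of 14 tested higher and 4 lower (median 0.33). Gzmk, a granzyme, stood at 30.8, 17.5, 17.0, 58.1 and 15.7 CPM in Ag and 128, 173, 218, 204 and 224 CPM in Ag+Costim (2.78 ± 0.34, adjusted p = 1.30e-05) without overlap. Gzmb, the main killer granzyme, went from 76.9, 47.0, 60.9, 154 and 49.5 to 133, 416, 546, 475 and 807 CPM (2.62 ± 0.45, adjusted p = 0.000326), with the Ag 4 and Ag+Costim 1 libraries overlapping. Serpinb9, which protects the cell from its own granzyme B, rose from 73.9, 69.8, 62.6, 85.9 and 55.3 to 298, 462, 467, 320.0 and 442 CPM (2.52 ± 0.16). The spread of Gzmb and of Gzma (1.76 ± 0.52) within groups was wide, and for both the highest Ag library was Ag 4. Gzmm (2.20) and Fasl, the death ligand (0.95), rose. Srgn, the proteoglycan that packs granules, fell (-1.18), as did Nkg7 (-0.71). Prf1, which encodes perforin, was not called at 80.9 ± 14.0 CPM in Ag and 89.9 ± 23.6 CPM in Ag+Costim (0.15 ± 0.17, adjusted p = 0.484, and -0.04 under upper-quartile scaling).

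Cytokine transcripts were lower more often than higher, with 5 of 11 tested falling and 1 rising (median -0.73). Tgfb1 was the gene that rose, from 11.3, 11.95, 16.3, 19.2 and 10.4 to 111, 127, 111, 86.2 and 95.5 CPM (2.95 ± 0.17, adjusted p = 3.01e-08). Ifng, the cytokine interferon-gamma of effector CD8+ cells, went from 17.0, 12.6, 18.0, 12.9 and 19.5 to 7.28, 10.5, 10.3, 8.59 and 8.49 CPM (-0.82 ± 0.17), and Lta, which encodes lymphotoxin-alpha, from 26.8, 34.0, 33.6, 22.1 and 24.4 to 14.6, 11.6, 10.7, 10.4 and 6.62 CPM (-1.38 ± 0.19). The groups of all 3 genes were separate. Tnf (-0.75) and Ltb (-0.73) fell, and Il2 fell (-0.61) from 5.49 ± 0.989 to 3.61 ± 0.445 CPM, a call lost under the length correction (adjusted p = 0.0599).

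Among 12 chemokines and effector chemokine receptors 4 rose and 3 fell, near the 26.6% and 26.5% of all genes. The median of 0.26 turned to -0.13 without Ag+Costim 4. Ccr2 stood at 8.86, 6.78, 6.01, 24.2 and 4.55 CPM in Ag and 76.0, 95.9, 84.7, 86.6 and 116 CPM in Ag+Costim (3.21 ± 0.39, adjusted p = 1.15e-05). Ccl4, an inflammatory chemokine, went from 60.4, 56.2, 61.5, 34.8 and 68.4 to 11.9, 8.36, 6.62, 9.4 and 4.41 CPM (-2.79 ± 0.25). No library overlapped for either gene. Xcl1, which attracts cross-presenting dendritic cells (-1.999), and Ccl3 (-1.29) fell, and Cxcr4 rose (1.88). Cxcr3 was high in both groups, at 441 ± 84.4 and 494 ± 102 CPM, and was not called (0.16 ± 0.18, adjusted p = 0.484, and -0.03 under upper-quartile scaling).

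Among 14 genes of lymph node homing and adhesion 7 rose and 3 fell (median 0.42), or 6 and 5 under upper-quartile scaling (median 0.22). Ccr7, the chemokine receptor for entry into lymph nodes, stood at 666, 762, 664, 439 and 801 CPM in Ag and 226, 186, 178, 342 and 225 CPM in Ag+Costim, 2.88-fold lower (-1.53 ± 0.19, adjusted p = 1.48e-05). Itga4, an integrin chain for inflamed endothelium, went from 139, 142, 129.5, 225 and 166 to 328, 390.2, 385, 446 and 394 CPM (1.28 ± 0.15). These groups did not overlap, and in Naive Ccr7 was higher still at 1083 and 1191 CPM. Itgb1 (1.18) and Itgal, which encodes LFA-1 (1.07), rose, Cd69, an early activation and retention marker, fell (-1.18), and Cd44 rose (0.58), a call lost under the length correction (adjusted p = 0.0899).

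Inhibitory receptors moved both ways, with 6 of 14 higher and 6 lower (median 0.40). Havcr2, which encodes TIM-3, stood at 3.55, 3.8, 3.42, 5.14 and 3.08 CPM in Ag and 59.2, 75.1, 77.5, 48.5 and 72.4 CPM in Ag+Costim, 17.6-fold higher (4.14 ± 0.24, adjusted p = 2.77e-08). Cd200, a ligand that quiets myeloid cells, went from 316, 335, 197, 136 and 298 to 29.98, 23.4, 13.5, 19.4 and 11.9 CPM, 13.04-fold lower (-3.71 ± 0.30). Ctla4, a competitor of CD28, went from 151, 162, 129, 105 and 166 to 30.5, 37.8, 33.4, 66.0 and 44.3 CPM (-1.75 ± 0.21). The groups of these 3 genes were separate. Lag3 (1.59), Klrg1 (2.38) and Tigit (1.05) rose, and Btla (-0.91) and Cd160 (-0.62) fell. Pdcd1, which encodes PD-1, was high in both groups against 3.25 and 3.63 CPM in Naive and was not called: 181 ± 33.1 CPM in Ag and 215 ± 54.1 CPM in Ag+Costim (0.25 ± 0.17, adjusted p = 0.227).

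Genes linked to anergy and hypofunction were lower more often than higher, with 11 of 21 falling and 8 rising (median -0.61), or 11 and 5 under the length correction. Beside Izumo1r, Nrgn, the calmodulin-binding protein neurogranin, stood at 234, 198, 103, 60.4 and 127 CPM in Ag and 15.4, 7.09, 5.49, 4.72 and 3.53 CPM in Ag+Costim (-4.32 ± 0.48, adjusted p = 8.79e-06). Nrn1, which encodes the surface protein neuritin, went from 170.3, 156, 85.0, 51.0 and 88.3 to 30.1, 14.0, 3.75, 2.65 and 0.805 CPM (-3.42 ± 0.84). Both were near 0 in Naive, at 0.556 and 0.231 and 0.412 and 0.399 CPM, and neither overlapped between Ag and Ag+Costim. Nt5e, which encodes CD73, fell (-2.10), with Egr2 (-2.77) and Egr1 (-1.80), factors induced by the T cell receptor, Tox (-0.90) and Dgka, a diacylglycerol kinase that dampens receptor signals (-0.73). Among the rises were Cblb, a ubiquitin ligase that restrains T cell activation (0.77), and Ikzf1 (1.24).

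**Figure D3:**
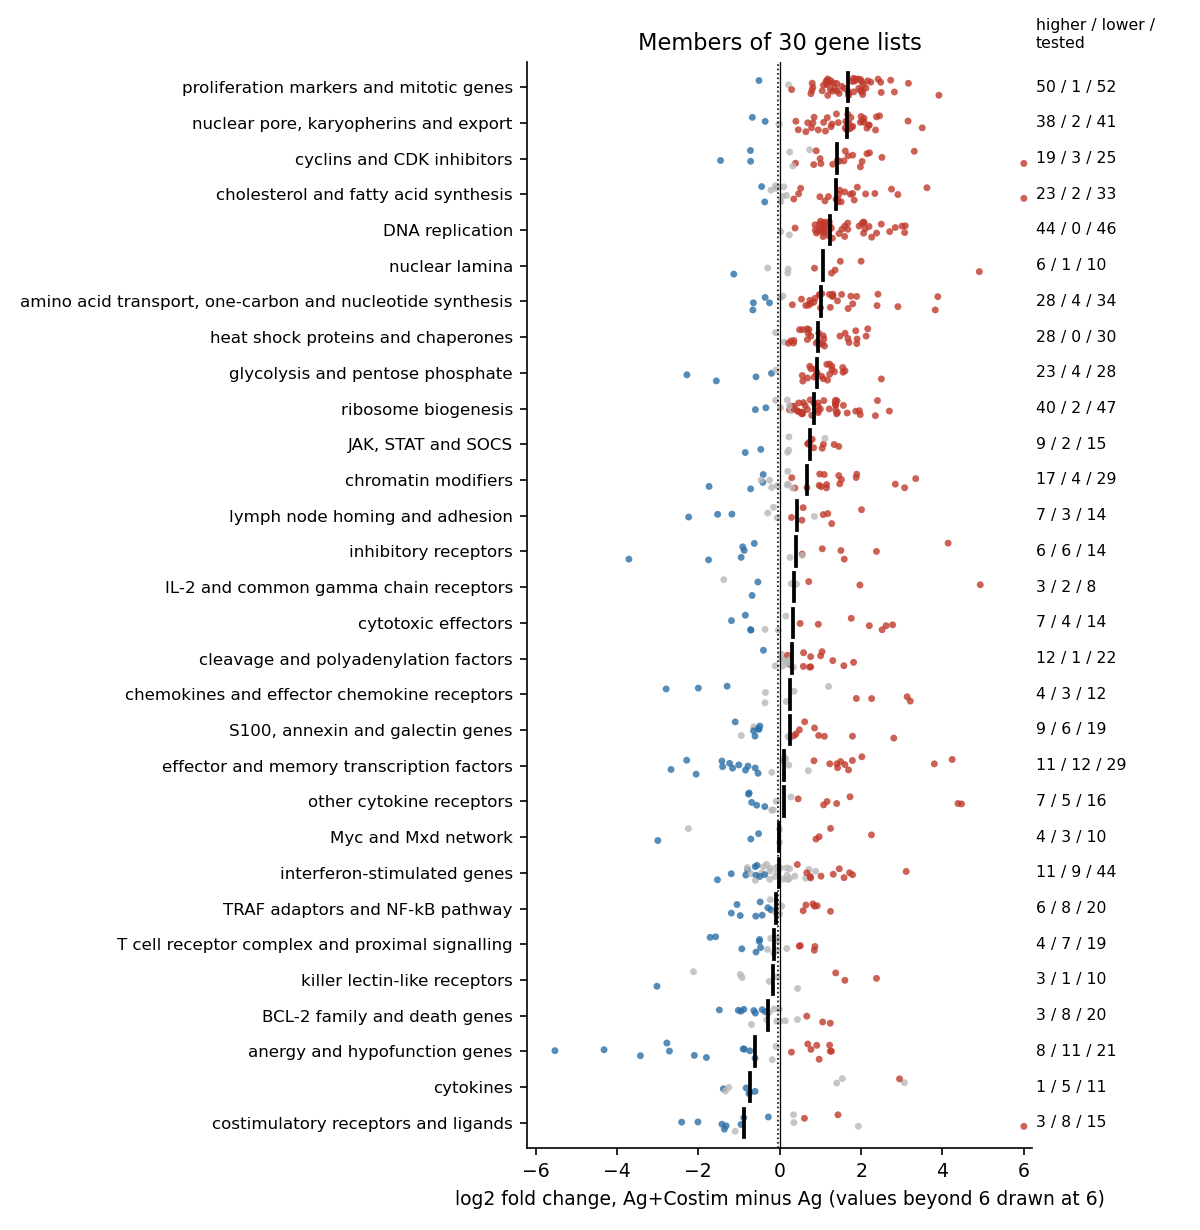
Log2 fold change of each tested member of 30 gene lists, 1 point a gene, red where it rose, blue where it fell and grey where it was not called, with a black bar at the list's median and a dotted line at the median of all genes (-0.05). The lists run from mitotic genes (50 of 52 higher) at the top to costimulatory receptors and ligands (8 of 15 lower) at the bottom.

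Chains of the T cell receptor complex were among the falls. Cd3g stood at 1868, 1615, 2124, 1251 and 1786 CPM in Ag and 511, 434, 503, 682 and 513 CPM in Ag+Costim (-1.71 ± 0.15, adjusted p = 5.74e-07), and Cd3d went from 1526, 1367, 1827, 1300.5 and 1542 to 479.7, 423, 486, 657 and 492 CPM (-1.58 ± 0.13). The coreceptor chain Cd8a went from 1041, 959, 1302, 935 and 1097 to 537, 563, 609, 585 and 504 CPM (-0.93 ± 0.10). None of these groups overlapped. Cd8b1 (-0.49) and the kinase Lck (-0.58) fell, while the kinase Zap70 (0.85) rose. Of 19 genes of the complex and its proximal signalling 7 fell and 4 rose (median -0.15), which became 14 and 3 under the length correction. Cd3e was not called (-0.22 ± 0.10, adjusted p = 0.0882), and it passed the test without Ag 4 or Ag+Costim 4, under upper-quartile scaling (-0.41) and under the length correction (-0.43).

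Of 8 genes listed as markers of CD8 T cells 7 fell and Cd3e was not called. Among the falls Trav14-1 was low and overlapped between groups, at 1.16 ± 0.669 CPM in Ag and 0.204 ± 0.163 CPM in Ag+Costim. Together the 8 genes held 1.04% to 1.32% of counts in Ag and 0.498% to 0.660% in Ag+Costim, without overlap (exact permutation test, adjusted p = 0.0185). Summed shares of genes listed as markers of other cell types moved as well, and some of these genes can be carried by the T cells themselves. B cell markers held 0.187% to 0.273% in Ag and 0.0829% to 0.180% in Ag+Costim. NK cell markers held 0.00163% to 0.00418% and 0.000672% to 0.00183%, dendritic cell markers 0.00124% to 0.00349% and 0.00307% to 0.0144%, the latter carried by Itgax, the 1 member of 5 tested that rose. Markers of stroma and endothelium held 0.0112% to 0.0142% in Ag and 0.00407% to 0.00758% in Ag+Costim. That share was carried mainly by Pecam1, at 112 ± 11.6 CPM in Ag, 50.3 ± 14.5 CPM in Ag+Costim and a mean of 131 CPM in Naive. Epcam followed at 13.4 ± 2.0 and 3.61 ± 1.24 CPM in Ag and Ag+Costim. Markers of platelets held 0.000193% to 0.00172% and 4.18e-05% to 0.000224%. The summed myeloid share was lower, at 0.0277% to 0.0434% in Ag and 0.0204% to 0.0305% in Ag+Costim (exact permutation test, adjusted p = 0.0444, lost when single libraries were left out), while of its 12 markers 2 fell and 3 rose, Itgam (2.40), Csf1r (1.55) and Adgre1 (1.39), on the log2 scale. Markers of CD4 and regulatory T cells held 0.00131% to 0.00277% and 0.00067% to 0.0013%. Of these only Cd40lg fell, from 15.5 ± 6.28 to 3.85 ± 0.992 CPM. Markers of plasma cells, with 1 of 5 rising and 1 falling, held 0.014% to 0.018% and 0.016% to 0.0241%. Xbp1, the 1 that rose, carried most of that share, at 109 ± 9.24 and 154 ± 9.82 CPM. Mitochondrial transcripts overlapped between the groups, at 0.686% to 2.26% and 0.555% to 0.817%. No marker of these lists was at 0 in all 10 libraries, and the part of these cells in the results was not tested.

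Among 10 killer lectin-like receptors, which tune killing by T and NK cells, 3 rose and 1 fell, against 26.6% and 26.5% of all genes. Their median was -0.16, or 0.01 under the length correction. Klrc1, which encodes NKG2A, stood at 113, 97.3, 149, 144 and 156 CPM in Ag and 404, 409, 386, 449.6 and 351 CPM in Ag+Costim (1.60 ± 0.14), and Klrc2, a near-identical neighbour whose reads cannot be fully told apart, went from 20.03, 17.5, 24.9, 32.9 and 26.5 to 66.1, 66.5, 63.9, 75.7 and 43.8 CPM (1.38 ± 0.18). Every Ag+Costim library lay above every Ag library for both. Klrb1c fell (-3.02) together with the NK cell markers, of which it is 1. Klrk1, which encodes NKG2D, stood at 389.6 ± 99.9 and 529 ± 112 CPM and missed the threshold (0.44 ± 0.18, adjusted p = 0.0537). It passed with the replicate block (adjusted p = 0.0124), a term for Y-linked genes (0.0134), DESeq2 (0.0333), thinning (0.0489), or Ag 4 (0.048), Ag 5 (0.0288) or Ag+Costim 1 (0.0402) left out, and fell to 0.05 under the length correction (adjusted p = 0.828).

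**Figure D4:**
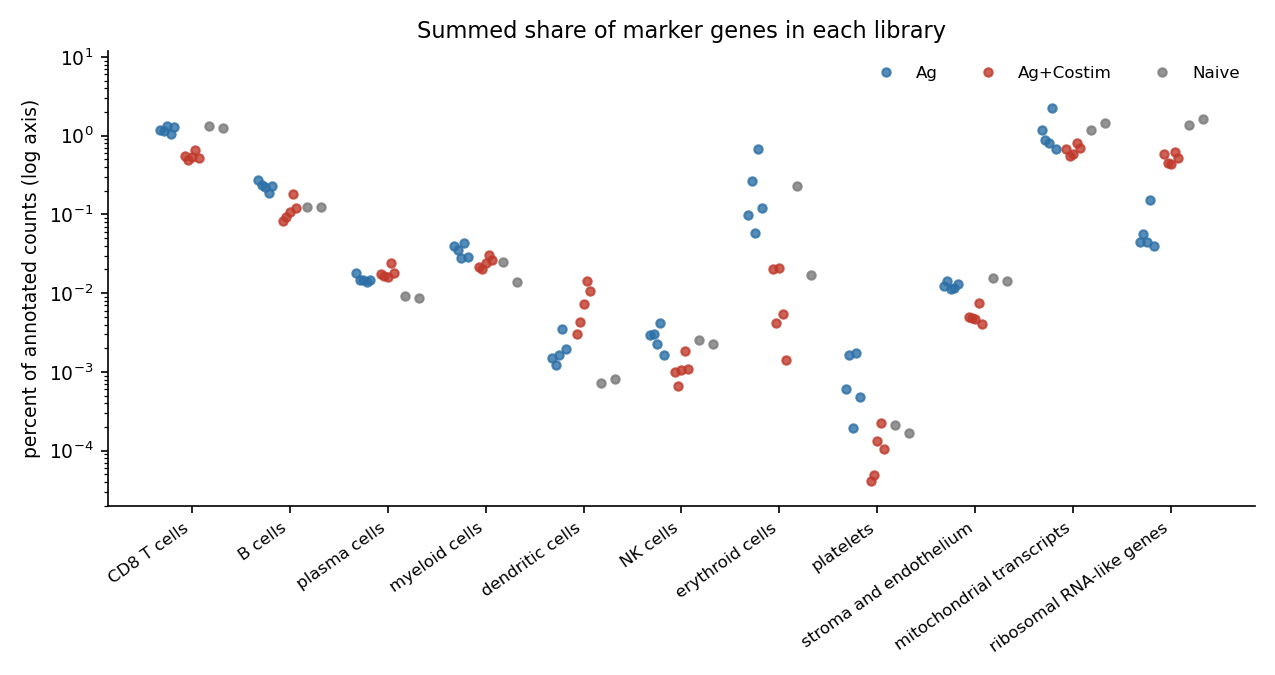
Percent of a library's annotated counts held by the genes of 11 marker lists, 1 point a library on a log axis, for Ag (blue), Ag+Costim (red) and Naive (grey). The erythroid share was 0.0589% to 0.673% in Ag and at most 0.0212% in Ag+Costim, and the share of ribosomal RNA-like genes was higher in every Ag+Costim library.

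Survival genes of the BCL-2 family and death genes were lower more often than higher, with 8 of 20 falling and 3 rising (median -0.29). Mcl1 stood at 289, 296, 268, 261 and 334 CPM in Ag and 128, 126, 87.1, 84.0 and 92.8 CPM in Ag+Costim (-1.48 ± 0.13, adjusted p = 6.70e-07). Bcl2l1, which encodes the survival protein BCL-XL, went from 20.2, 27.7, 22.8, 26.3 and 22.8 to 48.9, 47.7, 48.4, 50.6 and 53.3 CPM (1.05 ± 0.11). Bcl2l11, which encodes the death-promoting BIM, went from 38.3, 29.0, 31.8, 31.4 and 35.2 to 13.4, 16.6, 17.2, 20.6 and 14.1 CPM (-1.02 ± 0.13). The libraries separated the groups for all 3. Bcl2 fell (-0.95) and Pmaip1, which encodes NOXA, rose (0.67), and survival and death genes were thus found on both sides.

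Myc, which drives growth and metabolism of activated T cells, rose 1.86-fold, from 73.6 ± 16.6 to 137 ± 17.9 CPM (0.89 ± 0.14, adjusted p = 0.000121). In Naive Myc stood higher still, at 160 and 181 CPM, above every Ag and Ag+Costim library. Its partner Max went from 16.4, 14.9, 17.6, 20.4 and 20.4 to 71.7, 70.2, 101, 103 and 82.7 CPM (2.25 ± 0.14). Mxd4, which competes with MYC for MAX, went from 132, 108, 116, 106 and 98.5 to 14.4, 10.95, 10.6, 19.99 and 14.4 CPM, 7.97-fold lower (-2.99 ± 0.16). Mxd3 went from 70.5, 63.0, 55.6, 72.1 and 30.2 to 107, 93.9, 127, 109.8 and 132 CPM (0.97 ± 0.19). The groups of Max, Mxd3 and Mxd4 did not overlap, and of the 10 genes of this network 4 rose and 3 fell (median -0.01).

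Of 25 cyclins, CDKs, their inhibitors and E2F and RB family genes 19 rose and 3 fell (median 1.42). E2f8 stood at 10.9, 8.48, 8.48, 12.5 and 6.4 CPM in Ag and 89.0, 111, 96.7, 74.3 and 90.5 CPM in Ag+Costim (3.31 ± 0.22, adjusted p = 8.48e-08), E2f7 went from 8.07, 7.97, 4.54, 8.86 and 3.99 to 38.3, 44.9, 37.3, 27.7 and 42.0 CPM (2.51 ± 0.28), and Ccne2, the cyclin of entry into S phase, from 33.7, 25.6, 26.0, 33.6 and 18.2 to 130.3, 151, 126, 98.4 and 126 CPM (2.21 ± 0.16). None of these overlapped between groups. Ccna2 (2.03), Ccnb1 (1.79), Cdk6 (1.98) and Ccnd3 (0.99) rose, whereas Ccnd2, another D-type cyclin, fell (-1.45) with the CDK inhibitors Cdkn1b (-0.72) and Cdkn2d (-0.71).

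Of 52 mitotic genes tested 50 rose and 1 fell (median 1.68), and of 46 DNA replication genes 44 rose and 2 were not called (median 1.25), against 26.6% and 26.5% of all genes in the 2 directions. Espl1, which encodes separase, the protease that parts sister chromatids, stood at 13.3, 10.7, 5.64, 13.1 and 4.81 CPM in Ag and 120.2, 192, 148, 108 and 145 CPM in Ag+Costim (3.91 ± 0.31), and Bub1, a kinase of the spindle checkpoint, rose as well (3.16 ± 0.25). Pttg1, which encodes securin, the inhibitor of separase, was the mitotic gene that fell, from 135 ± 14.4 to 94.5 ± 16.6 CPM (-0.51 ± 0.12). Mcm10, a DNA replication factor (3.09 ± 0.24), and Dnmt1, the maintenance DNA methyltransferase (3.07 ± 0.14), were the largest rises of replication. All 5 Ag libraries already stood far above Naive for Bub1, which had 1.34 and 0.987 CPM there against 15.6 ± 6.37 CPM in Ag.

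E2F factors are known to switch on replication genes through sites near the transcription start. Windows of 300 bases around RefSeq starts (250 before and 50 after, GRCm38.p6) were searched on both strands for the letters TTTNNCGC, where N is any base. They were present in 39.1% of the 46 windows of 37 replication genes, in 16% of the 50 windows of mitotic genes, in 11.2% of 2217 windows of genes over 2-fold higher, in 5.49% of 1730 windows of genes over 2-fold lower and in 7.88% of all 14147 windows. Of the other lists searched, nuclear pore genes held them in 18.6% of 43 windows, ribosome biogenesis genes in 9.62% of 52 and cholesterol and fatty acid synthesis genes in 3.33% of 30. Base composition differed too. The median share of G and C was 61.7% in windows of genes over 2-fold higher, 57.3% for genes over 2-fold lower, 60% for all and 58% for replication genes. Its part in these shares was not tested. A match is a description of the letters and not a site shown to be bound. The stretches below surround the match nearest the start in the replication genes with the largest rises that hold one before the start, and are shown because they give the letters behind that share. Capitals mark the match, on either strand, and each is written along the strand of its gene.
Dnmt1, chr9:20952822-20952851, minus strand: tttccgcgcgcGCGAAAAAgccggggtctc
Uhrf1, chr17:56303270-56303299, plus strand: gccccacttgcTTTCTCGCttcccgccaca
Orc1, chr4:108579416-108579445, plus strand: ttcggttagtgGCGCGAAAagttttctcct
Mcm5, chr8:75109349-75109378, plus strand: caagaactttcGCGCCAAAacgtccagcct
Pola1, chrX:93632275-93632304, minus strand: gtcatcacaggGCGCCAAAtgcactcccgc
Cdc6, chr11:98908002-98908031, plus strand: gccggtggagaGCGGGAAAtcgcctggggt
These 6 genes were chosen for their rises, so their shared direction was set by the choice and says nothing about the letters. Dnmt1 stood at 66.4 ± 11.8 CPM in Ag and 557 ± 77.9 CPM in Ag+Costim, and Uhrf1, its recruiting partner, at 58.5 ± 14.3 and 419 ± 76.0 CPM (2.84 ± 0.18). Orc1, a subunit of the origin recognition complex, rose by 2.70 on the log2 scale, Mcm5, a helicase subunit, by 2.20, Pola1, the catalytic subunit of polymerase alpha, by 2.06 and Cdc6, which loads the helicase, by 2.02. Every Ag+Costim library lay above every Ag library for all 6. The match stood 217 bases before the start in Dnmt1 and 27 bases before it in Orc1. Of 11 other motifs searched, GGGANTTTC for NF-kB stood in 1.04% of windows of genes over 2-fold higher against 1.05% of all windows, TGANTCA for AP-1 in 5.19% against 5.26% and CACGTG, the E-box, in 9.38% against 9.51%. GGAAAATT for NFAT stood in 0.361% against 0.70%, AGGTGTGA for T-box factors in 1.22% against 0.933%, and CCGGAAG for ETS factors in 14.98% against 16.7%.

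Of 10 nuclear lamina genes 6 rose and 1 fell (median 1.06). Lmnb1, which encodes lamin B1, stood at 12.001, 11.995, 8.06, 17.8 and 8.35 CPM in Ag and 367, 392.03, 401, 224 and 353 CPM in Ag+Costim, 29.95-fold higher (4.90 ± 0.24, adjusted p = 1.08e-08), while Naive had 10.2 and 11.9 CPM. Lmnb2 went from 14.1, 17.2, 13.3, 18.3 and 9.6 to 57.4, 63.9, 63.3, 47.2 and 57.6 CPM (2.001 ± 0.17), and Sun1, which links the lamina to the cytoskeleton, from 32.9, 49.2, 26.8, 34.2 and 41.6 to 101, 112, 106, 84.3 and 115 CPM (1.49 ± 0.15). No library overlapped for these 3. Tmpo (1.36) and Lbr, the lamin B receptor (1.27), rose, and Lmna, which encodes the A-type lamins, fell (-1.13 ± 0.37, adjusted p = 0.0202), a call lost without Ag 2 (adjusted p = 0.053).

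Of 41 nuclear pore, karyopherin and export genes 38 rose and 2 fell (median 1.65). Nup188, a scaffold nucleoporin, went from 7.68 ± 1.36 to 86.9 ± 16.6 CPM, 11.3-fold higher (3.50 ± 0.15, adjusted p = 4.16e-09), and Nup205 rose by 3.15 on the log2 scale. Tpr, the nucleoporin of the nuclear basket, fell (-0.36 ± 0.06), and so did Alyref, an mRNA export adaptor (-0.67 ± 0.24, adjusted p = 0.0277), whose call was lost when single libraries were left out.

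Of 34 genes of amino acid transport, one-carbon and nucleotide synthesis 28 rose and 4 fell (median 1.02). Slc7a5, the transporter of leucine and other large amino acids, stood at 10.2, 8.71, 7.67, 13.4 and 5.6 CPM in Ag and 137, 187, 164, 67.8 and 115 CPM in Ag+Costim, 14.8-fold higher (3.89 ± 0.29, adjusted p = 1.65e-07). Cad, the enzyme that starts pyrimidine synthesis, went from 11.2 ± 3.72 to 158 ± 59.0 CPM, 14.1-fold higher (3.82 ± 0.28). Ag+Costim 4 was the lowest of its group for both and still lay above every Ag library. Ctps2, a CTP synthase, fell on the log2 scale (-0.65).

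Of 33 genes of cholesterol and fatty acid synthesis 23 rose and 2 fell (median 1.38). Fasn, fatty acid synthase, went from 17.1 ± 4.39 to 209 ± 87.9 CPM, 12.3-fold higher (3.62 ± 0.27, adjusted p = 1.91e-07). Ebp fell by little (-0.44), and Mvk (-0.37) fell with a call that was lost when single libraries were left out. Of 28 glycolytic and pentose phosphate genes 23 rose and 4 fell (median 0.91). Slc16a1, the lactate transporter MCT1 (1.56), and Pgd, an enzyme of the pentose phosphate pathway (1.55), rose, and Pdk1, which holds pyruvate back from the mitochondria, fell (-0.58).

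Of 47 ribosome biogenesis genes 40 rose and 2 fell (median 0.84), led by Rrp12 (2.69 ± 0.14) and Mybbp1a (2.40 ± 0.18), while Nop10 (-0.60) and Polr1c (-0.34) fell. Of 30 heat shock proteins and chaperones 28 rose and 2 were not called (median 0.95), with Canx, the lectin chaperone calnexin of the endoplasmic reticulum, 4.48-fold higher (2.16 ± 0.12) and Hsp90b1, which encodes GRP94, 3.73-fold higher (1.901 ± 0.11). Of 29 chromatin modifiers 17 rose and 4 fell (median 0.67, or 0.28 with 14 rises and 7 falls under the length correction). Cbx2, a Polycomb protein, rose 10.1-fold (3.34 ± 0.20), and Tet3, a DNA demethylase, fell (-0.71).

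Of 22 cleavage and polyadenylation factors, which cut and tail new transcripts, 12 rose and 1 fell (median 0.29), which became 7 and 3 under the length correction. Cpsf1, the largest subunit of the cleavage complex, went from 53.9 ± 6.64 to 189.9 ± 27.1 CPM (1.82 ± 0.12, adjusted p = 5.77e-08), and Cpsf2 rose by 1.58 on the log2 scale. Ssu72, a phosphatase of RNA polymerase II, fell (-0.40 ± 0.09). Every Ag+Costim library was on 1 side of every Ag library for these 3 genes.

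Interferon-stimulated genes moved both ways, with 11 of 44 higher, 9 lower and 24 not called (median -0.01), against 26.6% and 26.5% of all genes. Under upper-quartile scaling 9 were higher and 16 lower (median -0.20), and under the length correction 9 and 11 (median -0.22). Oas3, a sensor of double-stranded RNA, rose from 9.76 ± 3.48 to 83.7 ± 18.2 CPM (3.11 ± 0.22), and Ifih1, which encodes the RNA sensor MDA5, by 1.79 on the log2 scale. Isg20 (-1.53) and Ifi27l2a (-1.19) fell. Of 19 S100, annexin and galectin genes 9 rose and 6 fell (median 0.26, or 0.06 under upper-quartile scaling). Anxa11 rose 6.98-fold (2.80 ± 0.14) and Anxa1, an anti-inflammatory annexin, 3.45-fold (1.79 ± 0.28), and S100a13 fell (-1.09).

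The fold change moved with transcript length, which bears on every list of long or short genes. Among the 9280 genes with a mean log2 CPM above 3, split into 10 bins by summed exon length, the bin with a median length of 747 bases had a median log2 fold change of -0.27, with 45.3% of its genes lower and 19.2% higher. The bin with a median of 8330 bases had 0.42, with 53.9% higher and 20.3% lower. After each library was corrected for its own trend on length, the medians of the 10 bins lay between -0.10 and 0.03, 4550 genes were higher and 5456 lower, and 8586 of the 9985 calls were shared with the same direction. The cause of the trend was not tested.

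**Figure D5:**
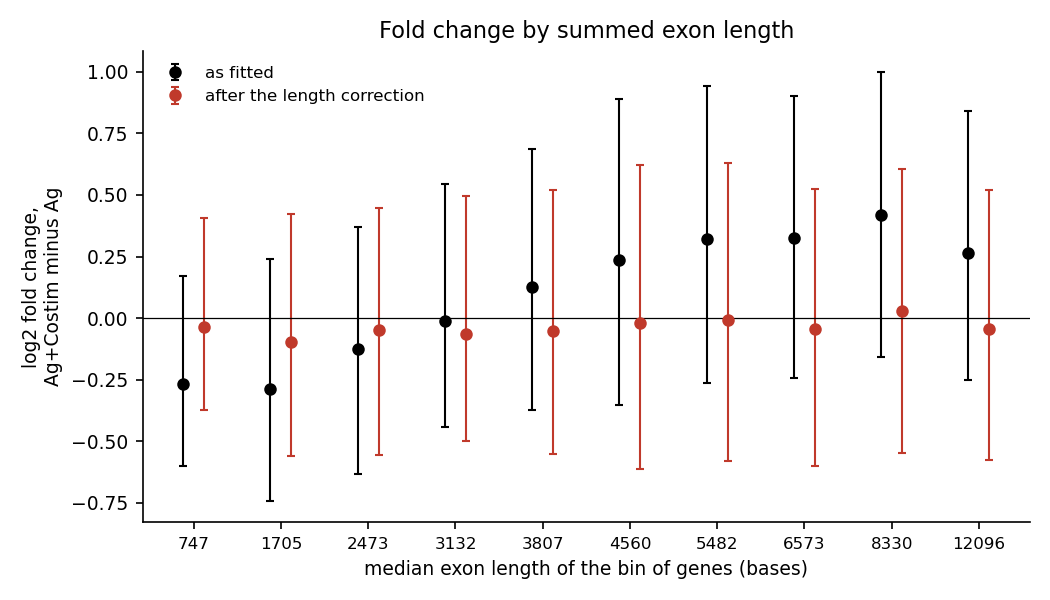
Median log2 fold change (points) with the lower and upper quartile (bars) for 10 bins of 9280 genes ordered by summed exon length, as fitted (black) and after the length correction (red). As fitted, the medians ran from -0.29 in the bin of 1241 to 2098 bases to 0.42 in the bin of 7312 to 9647 bases, and after the correction from -0.10 to 0.03.

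Counts of the genes named here can include reads of neighbours. Of the 198 genes taken by the naming rule 35 overlap another annotated gene on the same strand, Il2ra, Il2rg, Icos, Foxo1, Tcf7 and Ephx1 among them, and 85 on either strand, and the library kit used does not mark strand.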

How the data were processed

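RNA of 12 libraries was sequenced as single 100-base reads after full-length cDNA synthesis with SMART-Seq v4 and Nextera XT, a route that does not mark strand. The authors aligned reads to mm10 with HISAT2 2.1.0 and SAMtools 1.9 and assembled and quantified transcripts with StringTie 2.1.0, and they used DESeq2 1.30.1 under R 4.0.5. The deposited gene table holds counts that were not normalized, whole numbers per gene. In the 10 Ag and Ag+Costim libraries they summed to 97.1% to 107% of the sequenced reads, although 72.3% to 75.6% of reads aligned. They are therefore not plain counts of aligned reads. The deposited FPKM values, given per transcript and scaled by the authors to length and depth, were summed by gene symbol and used as an alternative. The sequencing sheet of the authors gives reads and the percent of reads per quality measure, with an input amount of no stated unit. Tables of transcript counts and of splicing, with the authors' own comparisons, were not used.

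Counts of the annotated genes were tested here with edgeR 4.0.16 (limma 3.58.1, R 4.3.3): TMM scaling, a filter on low counts by edgeR's default rule, and a quasi-likelihood fit of Ag, Ag+Costim and Naive, so that the 2 Naive libraries share the estimate of spread. A gene was called at an adjusted p below 0.05 over the 18817 genes tested. Entries without an annotated gene held 0.0508% to 0.121% of counts and stayed out. The floor of 3 counts was 0.0643 to 0.119 CPM in the 10 Ag and Ag+Costim libraries. It covers counting error only, and only as far as the counts stand for reads. Gene positions and lengths come from GENCODE vM21 (mm10), and promoter windows from RefSeq (GRCm38.p6), found for 11139 of 18796 symbols. The length correction removed from each library its own trend on summed exon length.

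On simulated data with 200 changed genes among 18817, the test recovered 22% of 1.5-fold, 76% of 2-fold, 94% of 4-fold and 100% of 8-fold changes (50 genes each), and 2.67% of its calls were unchanged genes. The simulated data had the 10 Ag and Ag+Costim libraries alone, and far fewer changed genes than were called in the real data. Alternatives were median-ratio and upper-quartile scaling, no filter, DESeq2 1.42.0, the 10 libraries alone, leaving out each library, a replicate block, thinning to the lowest depth, the length correction, composition genes left out, a term for Y-linked genes, and limma on log2(FPKM + 1) and log2(FPKM + 0.1). Summed marker shares were compared by exact permutation of the 5 and 5 libraries.

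The comparison and the gene lists were chosen with earlier results of these data known. Named were tested members of 18 core lists, the 2 largest rises and falls of 12 family lists, and the 15 largest rises and falls of protein-coding genes without overlap, the last 2 kinds at a mean log2 CPM above 3. Values per library were given for the first 10 of each direction and for up to 3 called members of each core list. Tnfrsf4 and Tnfrsf9 were added as the receptors bound by the antibodies, Cd70 for its counts of 0, the ribosomal RNA-like genes and markers beside the results they touch, and 5 replication genes for their promoter stretches. Some genes that this rule takes are not reported here.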

Additional observations from a re-analysis of the deposited data

Results flagged for a closer look

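Within each group of 5 libraries, the gap between the highest or lowest library and its nearest neighbour was divided by the range of the group and set against Dixon's critical value of 0.71. Of 412 groups tested 21 passed it, and chance alone passes about 1 in 20 groups. All gene values are log2 CPM.

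The Ag 4 library, the shallowest, was the lowest Ag library for Ephx1 (0.834), Icos (0.832), Tnfsf8 (0.814), Il2rg (0.787) and Nfkbia (0.777). It was the highest Ag library for Lars2 (0.773) and for the share of ribosomal RNA-like genes (0.85), a list that includes Lars2.

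The Ag+Costim 4 library was the lowest of its group for Lmnb1 (0.781), Eomes (0.727) and Cpsf2 (0.717). It was the highest for Btla (0.788), Dgka (0.779), Il7r (0.774) and Tpr (0.748), and for the marker shares of stroma and endothelium (0.726) and of plasma cells (0.712).

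Of the other libraries, Ag 2 was the highest for Zap70 (0.774), Ag 3 the lowest for Anxa1 (0.717), and Ag 1 the highest for the plasma cell share (0.804). Ag+Costim 1 was the highest for the share of CD4 and regulatory T cell markers (0.755), and Ag+Costim 2 was the highest for Ikzf1 (0.719). No cause of these gaps was tested.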

How the results depend on the processing

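The counts of higher and lower genes (5006 and 4979) stayed within 1.5 times under each alternative run: 4056 to 5191 were higher and 4724 to 6338 lower apart from left-out libraries, and 4688 to 5156 and 4494 to 5034 with 1 library left out. No gene called both ways was found except 3 under the length correction and 5 with each FPKM pseudocount. The counts over 2-fold fell to 1390 higher and 1212 lower with an FPKM pseudocount of 1, which shrinks the folds of low genes. Of the 30 list medians, 20 moved under upper-quartile scaling and 17 under the length correction.

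Under upper-quartile scaling the log2 fold change turned to -0.0524 for Batf, -0.0321 for Cxcr3 and -0.0417 for Prf1. Tnfrsf4 ran from -0.143 without Ag+Costim 2 to 0.640 without Ag+Costim 4, and turned to -0.0502 with the replicate block and to -0.0477 and -0.135 with FPKM pseudocounts of 1 and 0.1. None of these 4 genes was called in the main comparison, and the cause was not tested.

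Replicate numbers are shared between the groups, but same-numbered libraries deviated together only weakly (correlations of 0.016 to 0.095, none above 0.1), so they were not taken as pairs. With the replicate block 4993 genes were higher and 4743 lower, and 9360 of the 9985 calls were shared.

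With 1 library left out, differences in summed marker share (Ag+Costim minus Ag, percentage points of counts) crossed the threshold of the exact test for plasma cells (0.0018 to 0.0039), myeloid cells (-0.012 to -0.00809), dendritic cells (0.00439 to 0.00721), NK cells (-0.00197 to -0.00134), erythroid cells (-0.279 to -0.125), platelets (-0.00101 to -0.000625) and mitochondrial transcripts (-0.612 to -0.22). For Y-linked genes, not called, the difference ran from -0.00456 to 0.000686, and it turned to 0.000583 without Ag 1 and 0.000686 without Ag 2. With 4 against 5 libraries the exact test has fewer arrangements. At 5 libraries a group, the simulated test missed most 1.5-fold changes. It held only 200 changed genes among 18817, against 9985 calls in the data, so its adjusted p was harder to pass. Its recovery therefore does not carry over, and the size of change missed in the data is not known. A gene that was not called was not shown to be unchanged.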

Other observations

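Long non-coding and antisense genes were lower more often than higher with costimulation, and processed pseudogenes were not. Of 730 lincRNA genes tested 63 were higher and 249 lower, and of 774 antisense genes 45 were higher and 243 lower, whereas of 2047 processed pseudogenes 448 were higher and 397 lower, and of 13121 protein-coding genes 4281 were higher and 3537 lower. The kit does not mark strand, so antisense counts cannot be told apart from those of their partner genes. Of 42 variable segments of T cell receptor genes 17 were lower and 25 were not called, against 26.5% of all genes lower. The OT-I cells carry a transgenic receptor, so a count over all segments does not measure the level of that receptor.

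Some genes were read in only 1 of the Ag and Ag+Costim groups, and several of them also in Naive (0.268 CPM for Ret, 1.17 CPM for Scg5 and 3.45 CPM for Plat). In 26 genes no Ag library held a count while every Ag+Costim library held more than 3, among them the receptor kinase gene Ret (at least 30.4-fold higher, with each library of the empty group set to 3 counts) and Inava (at least 19.9-fold). In 24 genes the reverse held, among them Pdzk1ip1 (at least 56.6-fold lower), Scg5 (at least 24.1-fold) and Plat, which encodes tissue plasminogen activator (at least 20.3-fold). These genes were chosen after their values were seen.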
